A study of Drosophila melanogaster with 12 samples.

Results

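The Jockey clade is a family of LINEs, retrotransposons without terminal repeats, and 8 of its Drosophila melanogaster elements are described here: jockey, Doc, F-element, Juan, BS, G6, X-element and the telomeric HeT-A. They were chosen by element name among the 175 transposon rows of a table of Egg chromatin immunoprecipitation sequencing (ChIP-seq). The table holds 16967 features in all once the rows of each gene are summed. Each of the 8 names matched a single row, and all 8 rows had enough reads to be compared.

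LINEs copy themselves through an RNA that is reverse transcribed at the site of insertion. A typical element encodes an RNA-binding Gag-like protein and a protein with endonuclease and reverse transcriptase activity. HeT-A encodes the Gag-like protein but no reverse transcriptase of its own, and it inserts at chromosome ends, where arrays of HeT-A and its relatives TART and TAHRE maintain the telomeres of flies in place of telomerase. In ovaries, piRNAs bound to the Argonaute protein Piwi lead to histone H3 lysine 9 methylation over transposons. Egg (Eggless), the fly SETDB1, is a methyltransferase for that mark, and Windei (Wde) is its cofactor.

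DNA bound by Egg was measured in cultured ovarian somatic cells (OSCs), a Drosophila line of somatic cells of the ovary that holds no germline cells. Cells in all groups were crosslinked with formaldehyde 4 days into a knockdown, of Egg (siEgg), of Piwi or Wde, or of EGFP (siEGFP, the control target). The labels list 12 samples in 8 groups, an Egg ChIP and an input for each knockdown, with 2 samples in each siEgg and siEGFP group. The table has 4 value columns, an Egg ChIP and an input for siEgg and for siEGFP, without a replicate number, so a column may be 1 sample or a pool of both, and is called a library below. The siPiwi and siWde samples were not analysed here. Because the reads are genomic DNA, neither the depletion of Egg nor the identity of the cells can be checked from them.

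Levels are given as RPKM, which corrects a read count for the length of the row and the size of the library. Whole reads recovered from them gave depths of 1698148 reads for the siEgg ChIP, 2293964 for the siEgg input, 1796866 for the siEGFP ChIP and 2183061 for the siEGFP input. With 1 library per group there is no replicate spread and no test between samples. Each value therefore carries a 95% interval that covers counting error only, and every comparison is between libraries, not between cultures. Enrichment is the log2 ratio of ChIP to input RPKM after adding 0.6 RPKM to each. A value was called when it was at least 2-fold with an interval outside 0, and the interval alone is given as a looser reading. Each row collects reads from every genomic copy of an element, so a value is an average over copies inside and outside heterochromatin. Related elements may share reads.

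The recovered row lengths of the 8 elements lay between 2042 bases for G6 and 6083 bases for HeT-A, with 5142 for BS, 5020 for jockey, 4740 for X-element, 4725 for Doc, 4708 for F-element and 4236 for Juan. Together the elements took 1.36% of the siEgg ChIP reads and 1.35% of the siEgg input reads, against 1.37% of the siEGFP ChIP reads and 1.33% of the siEGFP input reads. Doc and F-element held most of them, 70.7% in the siEgg ChIP and 67.9% in the siEGFP ChIP. A summed value for the clade is therefore mostly a value for these abundant elements: it was 0.01 on the log2 scale in siEgg (interval -0.02 to 0.03) and 0.04 in siEGFP (0.02 to 0.07). Of the single elements, Doc and F-element shared that flat profile, while the others departed from it in siEGFP.

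The input reads rank the elements by their abundance in OSC DNA. Input level per length is given as a multiple of the median gene with a single row. F-element was the most abundant, with 206 times the median gene in the siEgg input and 186 times in the siEGFP input. Doc, whose insertion into the white gene produced the first white-eyed flies, followed with 148 times in siEgg and 136 times in siEGFP. Next came jockey (43.1 in siEgg and 42.5 in siEGFP), Juan (40.3 in siEgg and 35.1 in siEGFP), X-element (26.0 in siEgg and 26.2 in siEGFP) and BS (15.4 in siEgg and 15.3 in siEGFP). G6, a member of the G family of LINEs, had 12.9 in siEgg and 12.6 in siEGFP, and HeT-A was the least abundant of the 8 with 8.59 in siEgg and 8.32 in siEGFP. These multiples average full and truncated copies and are not copy numbers.

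**Figure D1:**
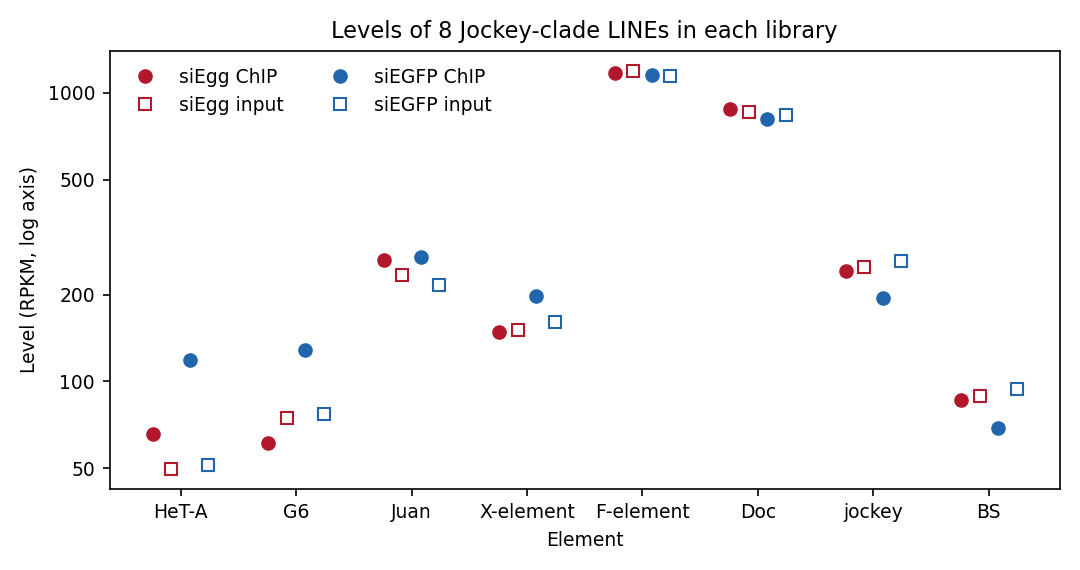
Level of each element (RPKM, log axis) in the siEgg ChIP, siEgg input, siEGFP ChIP and siEGFP input; each symbol is 1 library, with no replicate error. For HeT-A and G6 the siEGFP ChIP (118 and 128 RPKM) stands above the other 3 libraries, while for jockey and BS it is the lowest of the 4.

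HeT-A had the highest ratio of Egg ChIP to input of the 8 elements in both knockdowns, although its level per length in the siEGFP ChIP was below those of 6 other members. Its level was 65.8 RPKM in the siEgg ChIP and 49.8 RPKM in the siEgg input, against 118 RPKM in the siEGFP ChIP and 51.2 RPKM in the siEGFP input. The inputs nearly coincide, and the siEGFP ChIP stands apart from the other libraries. In siEGFP cells HeT-A was enriched 2.30-fold (2.11 to 2.54), or 1.20 on the log2 scale, on 1294 ChIP and 680 input reads. It ranked at place 2 of the 122 transposon rows tested, behind the retrotransposon diver at 4.48. The rows transib4 at 1.14 (0.71 to 1.68), transib1 at 1.12 (0.70 to 1.61) and 17.6 at 1.09 (1.03 to 1.15) were called too. Their intervals overlap that of HeT-A (1.07 to 1.35), so place 2 is not set apart from them by counting error. The siEGFP input of transib1 held 64 reads, against 122 in the siEgg input. HeT-A was the only member to pass the 2-fold rule in siEGFP, 1 of 8, where 5.63% of all 12678 features tested and 4.1% of the transposon rows passed it. With quantile scaling its value was 0.88 and the call ended.

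G6 came next, with 61.4 RPKM in the siEgg ChIP and 74.7 RPKM in the siEgg input, against 128 RPKM in the siEGFP ChIP and 77.4 RPKM in the siEGFP input. Its siEGFP enrichment was 0.72 (interval 0.52 to 0.93), or 1.65-fold, at place 13 among the transposons. This value rests on the fewest reads of the 8, 470 in the ChIP and 345 in the input. HeT-A exceeded G6 by 0.48 (0.24 to 0.72), and G6 exceeded Juan by 0.40 (0.19 to 0.63), more than counting error in both pairs.

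Juan and X-element stood slightly above input in siEGFP. Juan had 264 RPKM in the siEgg ChIP and 234 RPKM in the siEgg input, against 269 RPKM in the siEGFP ChIP and 216 RPKM in the siEGFP input. X-element had 148 RPKM in the siEgg ChIP and 151 RPKM in the siEgg input, against 198 RPKM in the siEGFP ChIP and 161 RPKM in the siEGFP input. Their siEGFP values, 0.32 (0.23 to 0.41) for Juan and 0.30 (0.20 to 0.40) for X-element, differed by 0.02 (-0.11 to 0.15), within counting error. Both signs depend on the scaling, since quantile scaling gave -0.05 for Juan and -0.01 for X-element.

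The abundant F-element and Doc lay close to input in every library. F-element had 1166 RPKM in the siEgg ChIP and 1192 RPKM in the siEgg input, against 1155 RPKM in the siEGFP ChIP and 1143 RPKM in the siEGFP input. Doc had 876 RPKM in the siEgg ChIP and 859.95 RPKM in the siEgg input, against 814 RPKM in the siEGFP ChIP and 834 RPKM in the siEGFP input. In siEGFP their ratios were 0.01 (-0.02 to 0.05) for F-element and -0.03 (-0.08 to 0.01) for Doc, on 9768 and 6908 ChIP reads. Depth is not the limit for these elements, since an enrichment above 1.04-fold for F-element or 1.01-fold for Doc lies outside the counting interval. The sign of neither value is stable: F-element had -0.65 with quantile scaling and -0.02 with pooled inputs, and Doc had 0.26 after centring on the median gene.

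The elements jockey, one of the long-known active LINEs of the fly, and BS lay below input in siEGFP. In RPKM, jockey had 240.4 in the siEgg ChIP and 249.9 in the siEgg input, against 195 in the siEGFP ChIP and 261 in the siEGFP input. BS had 86.2 RPKM in the siEgg ChIP and 89.0 RPKM in the siEgg input, against 69.2 RPKM in the siEGFP ChIP and 94.0 RPKM in the siEGFP input. In both elements the siEGFP ChIP alone was low. The siEGFP ratios were -0.42 (-0.51 to -0.34) for jockey and -0.44 (-0.59 to -0.30) for BS, which placed them at 118 and 119 of the 122 transposon rows. These values did not differ from each other beyond counting error (0.02, interval -0.15 to 0.19).

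**Figure D2:**
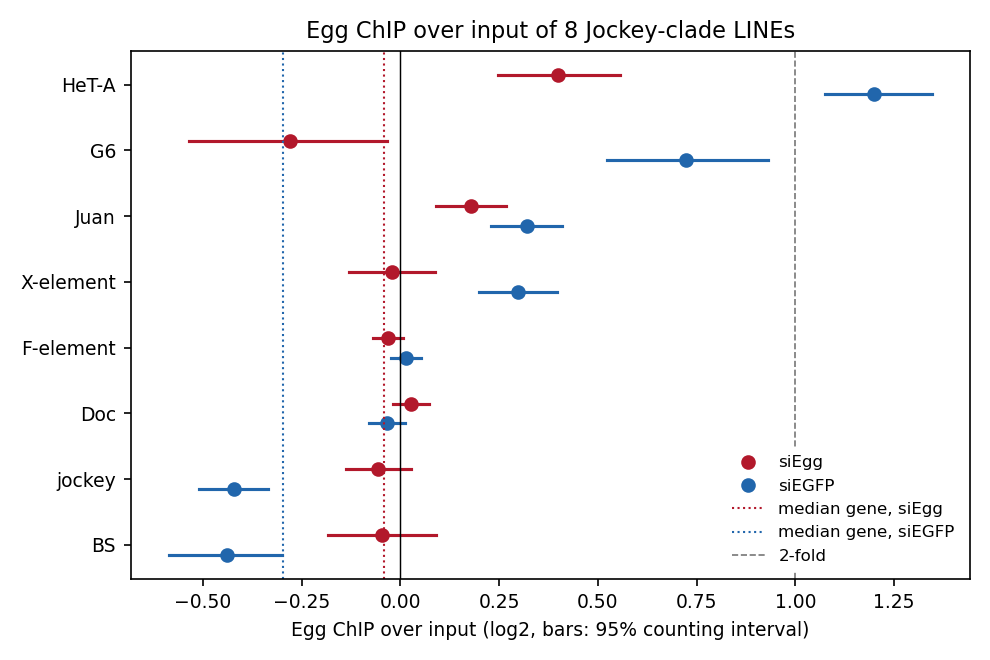
Log2 Egg ChIP over input for each element in siEgg (red) and siEGFP (blue), with 95% counting intervals; dotted lines mark the median gene and the dashed line 2-fold. In siEGFP the elements run from 1.20 for HeT-A to -0.44 for BS, and in siEgg from 0.40 for HeT-A to -0.28 for G6.

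In siEGFP, intervals lay above 0 for 4 of the 8 members and below 0 for 2, where 48.4% of the transposon rows lay above and 12.3% below. Of all 12678 features tested, 1127 had intervals above 0 and 2360 below. For the members, quantile scaling gave 2 above and 4 below, and centring on the median gene gave 6 above and 2 below. The median gene itself lay at -0.04 in siEgg and -0.30 in siEGFP, a shift between the knockdowns that exceeds the smaller ratios above. The source of this shift was not tested. Relative to the median gene, siEGFP enrichment was 1.50 for HeT-A, 1.02 for G6, 0.62 for Juan, 0.60 for X-element, 0.31 for F-element, 0.26 for Doc, -0.12 for jockey and -0.14 for BS. On that centred scale G6 also passed the 2-fold rule, so 2 of the 8 members were enriched, as were 9.28% of all features.

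After Egg knockdown the 8 elements lay closer together. In siEgg HeT-A remained the highest with 0.40 (0.25 to 0.56), or 1.32-fold, on 680 ChIP and 695 input reads. Juan followed with 0.18 (0.09 to 0.27), and HeT-A exceeded it by 0.22 (0.05 to 0.40). G6 was the lowest with -0.28 (-0.54 to -0.03) on 213 ChIP reads. Doc at 0.03, X-element at -0.02, F-element at -0.03, BS at -0.05 and jockey at -0.06 had intervals that include 0, and in that order no neighbours differed beyond counting error. No member passed the 2-fold rule in siEgg, where 1.28% of all features and 0.82% of the transposon rows did. Intervals lay above 0 for 2 members and below 0 for 1, against 45.1% and 4.1% of the transposon rows. Of all 12678 features tested, 413 had intervals above 0 and 417 below.

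Comparing siEgg with siEGFP gives a difference between libraries for each element, which is not a measure of how far its ChIP signal depends on Egg. G6 fell by 1.003 on the log2 scale in siEgg (interval -1.32 to -0.69), a ratio of 0.499, on 213 siEgg and 470 siEGFP ChIP reads and 350 siEgg and 345 siEGFP input reads. It was the only member called lower, 1 of 8, where 3.42% of all features and 2.46% of the transposon rows were called lower; 5.3% of all features and 0.82% of the transposon rows were called higher. The value sits at the edge of the rule: with the pseudocount 5 times larger it was -0.98 and the call ended, and with quantile scaling it was -0.67.

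HeT-A in siEgg was at 0.574 times its siEGFP enrichment, a change of -0.80 (interval -1.004 to -0.60), which misses the 2-fold rule. As a share of library reads, it took 0.0400% of the siEgg ChIP and 0.0720% of the siEGFP ChIP, while its input took 0.0303% in siEgg and 0.0311% in siEGFP. Of the 122 transposon rows, G6 and HeT-A had the changes at places 3 and 5 from the lowest, with diver the lowest at -2.13. Near them were transib1 at -1.08 (-1.66 to -0.49), 17.6 at -0.85 (-0.94 to -0.76) and gypsy at -0.79 (-0.84 to -0.75). The intervals of these rows overlap that of HeT-A. For transib1 the ChIP libraries compared without inputs gave -0.24 (-0.66 to 0.16), its input being higher in siEgg by 0.83 (0.41 to 1.32). Without inputs HeT-A had -0.84 (-0.98 to -0.71). The changes of G6 and HeT-A did not differ beyond counting error (0.20, interval -0.17 to 0.58). Centred on the median gene, HeT-A had -1.06 and G6 had -1.26, and both passed the rule.

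X-element changed by -0.32 (-0.46 to -0.17) and Juan by -0.14 (-0.27 to -0.02), neither of them 2-fold. For Juan the ChIP libraries compared without inputs gave -0.03 (-0.12 to 0.06), its input being higher in siEgg by 0.11 (0.03 to 0.20), and quantile scaling turned its sign to 0.03. F-element at -0.05 (-0.10 to 0.01) and Doc at 0.06 (-0.002 to 0.13) had intervals that include 0, and their signs turned with the processing, F-element to 0.65 with quantile scaling and to 0.01 with pooled inputs, and Doc to -0.19 after centring. In contrast, jockey and BS were higher in siEgg, jockey by 0.37 (0.25 to 0.48) and BS by 0.39 (0.20 to 0.59), again short of 2-fold. After centring these were 0.11 for jockey and 0.14 for BS, with intervals that include 0.

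**Figure D3:**
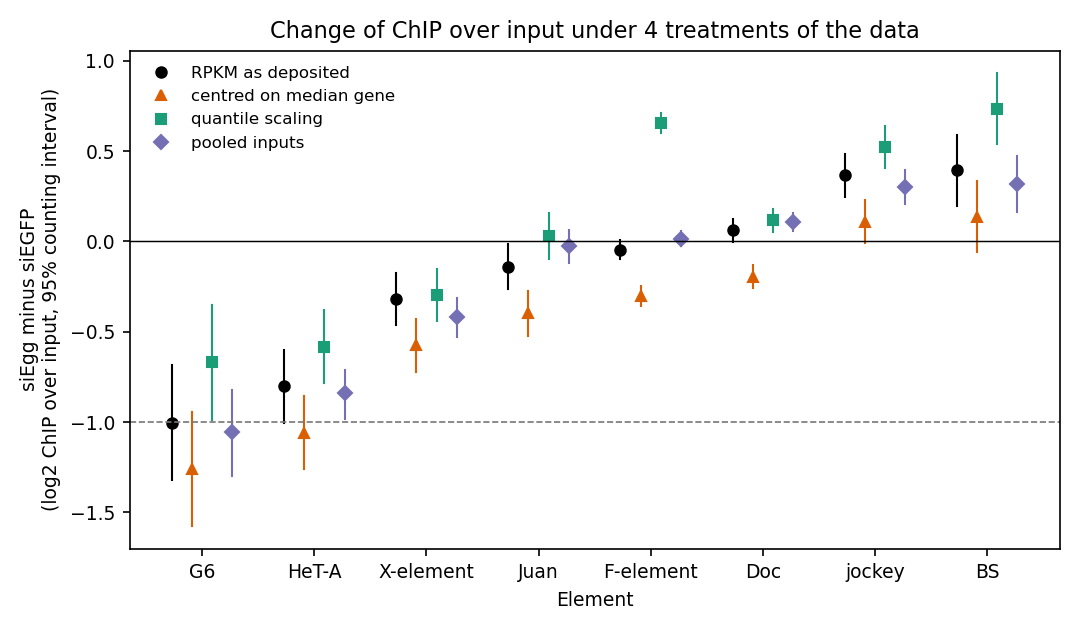
Change in log2 Egg ChIP over input, siEgg minus siEGFP, for each element with 95% counting intervals, under 4 treatments of the data; the dashed line marks a 2-fold fall. G6, HeT-A and X-element lie below 0 under all 4, jockey and BS above 0, and the sign of Juan, F-element and Doc depends on the treatment.

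By interval, 4 members were lower and 2 higher in siEgg, where 24.6% of the transposon rows were lower and 25.4% higher. Of all 12678 features tested, 554 were lower and 1052 higher by interval. The split of the members was 3 lower and 4 higher with quantile scaling, 6 lower and 0 higher after centring, and 3 lower and 3 higher with pooled inputs or without inputs. Over all features 3.42% were called lower and 5.3% higher, against 6.12% lower and 2.03% higher after centring and 3.15% lower and 2.46% higher with quantile scaling. Ratios lay closer to 0 in siEgg than in siEGFP for 7 of the 8 members, and for 83 of the 122 transposon rows (68.0%). The standard deviation across the members was 0.20 in siEgg and 0.56 in siEGFP, that across the transposons tested was 0.30 in siEgg and 0.54 in siEGFP, and that across the genes tested was 0.48 in siEgg and 0.75 in siEGFP. The part of this general narrowing in the values of single elements was not tested.

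Input siEgg over input siEGFP ranged from -0.10 for X-element to 0.11 for Juan over the 8 elements. Over the 88 transposon rows whose inputs each held at least 200 reads, this ratio had a standard deviation of 0.10, with a largest size of 0.41 for Quasimodo, and 23 of the 88 counting intervals lay outside 0. With fewer input reads, transib1 had a larger ratio, 0.83 (0.41 to 1.32). The inputs thus differed by more than counting error in part of the rows. They do not measure the variation between immunoprecipitations, for which these data hold no replicate.

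**Figure D4:**
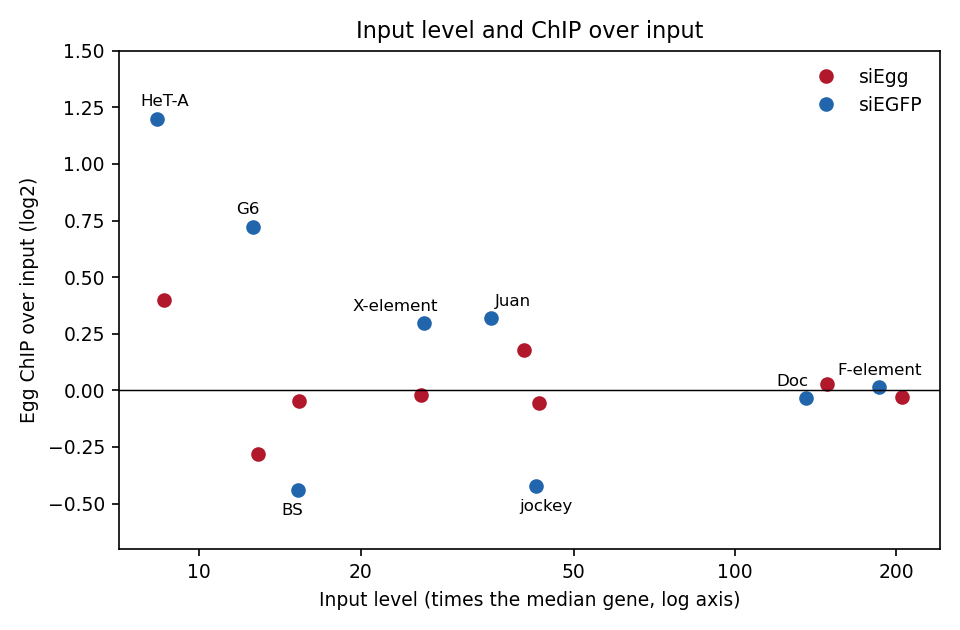
Log2 Egg ChIP over input against input level (times the median gene, log axis) in siEgg (red) and siEGFP (blue); each point is 1 element, named at its siEGFP point. The most abundant elements, F-element and Doc, lie near 0 in both knockdowns, and the least abundant, HeT-A, is the highest in both.

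Other elements of the same clade spanned a narrower range of siEGFP ratios than the members. Of 19 further Jockey-clade names listed, 12 were found with enough reads: Doc2-element, Doc3-element, jockey2, BS3, G-element, G2, G3, G4, G5, G5A, G7 and Helena. A second BS3 row was at 0 in every library, and BS4, G, TART and TAHRE were not found under those names and were not analysed here. In siEGFP these 12 ranged from -0.12 for jockey2 to 0.48 for G3, with a median of 0.10, against -0.44 to 1.20 and a median of 0.16 for the 8 members and a median of 0.19 for all transposons tested. In siEgg they ranged from -0.10 for G2 to 0.40 for G4, with a median of 0.09, against -0.03 for the members. None was called in either library or in the change, which ran from -0.30 for G3 to 0.28 for Helena. Relatives by name did not all share the values of the members. G6 changed by -1.003. Of the other G elements, G5 changed by -0.01 (-0.22 to 0.19), G4 by 0.11 (-0.18 to 0.40) and G-element by 0.07 (-0.04 to 0.19), intervals that lie above that of G6, as does that of G5A at -0.01 (-0.35 to 0.32). The interval of G2 at -0.28 (-0.64 to 0.09) also lies above that of G6, by a small margin. Those of G3 at -0.30 (-0.78 to 0.18) and G7 at 0.001 (-1.27 to 1.27) overlap that of G6. BS changed by 0.39, and BS3 by -0.28 (-0.57 to 0.02). Doc and Doc2-element were both close to input, Doc2-element having -0.05 in siEgg and -0.01 in siEGFP. Doc4-element, Fw2 and Fw3 were not on the list and are given for their names. They had 0.21, 0.10 and -0.06 in siEgg, against 0.20, -0.37 and 0.31 in siEGFP. The siEGFP value of Fw2 and the changes of Fw2 at 0.47 (0.03 to 0.92) and Fw3 at -0.38 (-0.96 to 0.20) lie outside the ranges of the 12.

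The 10 LINEs of other clades had siEGFP values from -0.85 for the I-element to 0.66 for Rt1c, with a median of 0.19, and none was called. Their changes ran from -0.54 for Rt1c to 0.27 for the I-element, with intervals below 0 for 5 and above 0 for 2. The rRNA-gene element R1A1-element, for example, had 0.08 in siEgg and 0.51 in siEGFP.

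HeT-A rows of other species were at 0: the Drosophila yakuba and Drosophila virilis rows Dyak\HeT-A and Dvir\HeT-A took no reads in any library. The row Dyak\TART had 175 siEGFP input reads and a siEGFP enrichment of 0.16. Its change was -0.08 (-0.52 to 0.37), an interval that lies above that of HeT-A. This row is named for another species, and how well it stands for the TART of these cells was not tested.

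**Figure D5:**
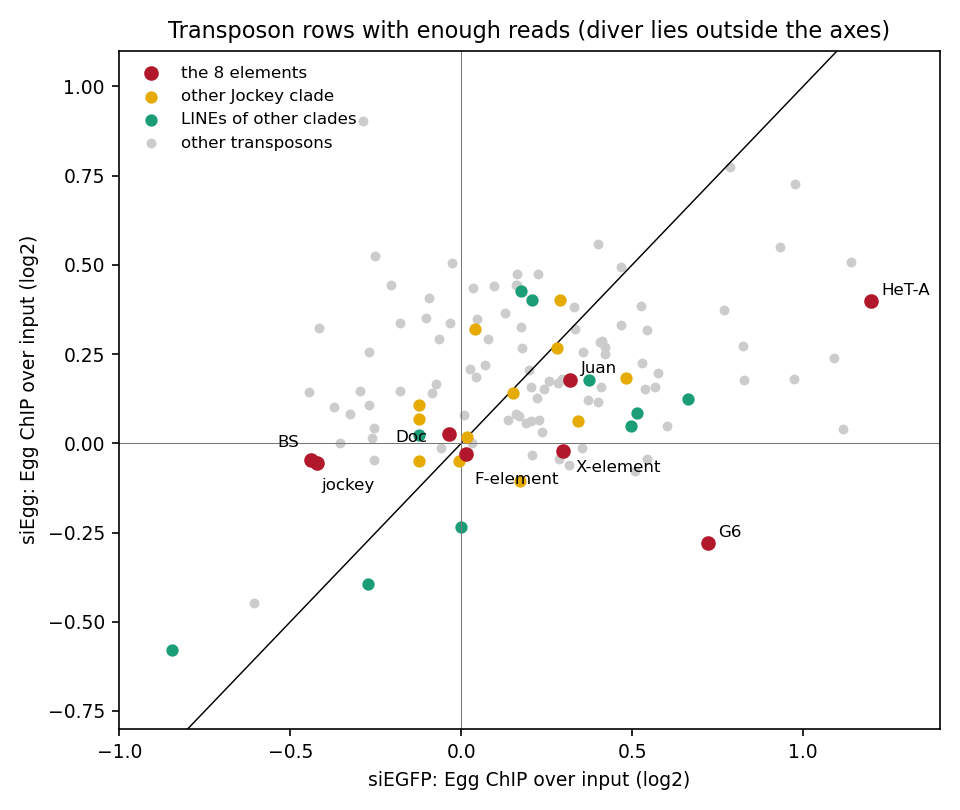
Log2 Egg ChIP over input in siEgg (vertical) against siEGFP (horizontal) for the transposon rows tested; each point is 1 row, the diagonal marks equal values, and diver, at 2.35 in siEgg and 4.48 in siEGFP, lies outside the axes. HeT-A and G6 lie far below the diagonal, and jockey and BS lie above it.

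By distance over both log2 enrichments, jockey and BS were each other's nearest rows among all transposons, 0.02 apart. The row nearest to HeT-A was the DNA transposon transib4, at 0.13, with 0.51 in siEgg and 1.14 in siEGFP. It had 56 siEGFP input reads, and its siEGFP interval (0.71 to 1.68) was wider than that distance. Nearest to G6 was the LTR retrotransposon gypsy8, at 0.29. The intervals of gypsy8, -0.41 to 0.24 in siEgg and 0.25 to 0.80 in siEGFP, overlap those of G6 in both knockdowns. X-element lay 0.02 from diver2, Juan 0.02 from INE-1, F-element 0.03 from Doc2-element and Doc 0.05 from 3S18. INE-1 had 83 siEGFP input reads and a siEGFP interval of -0.16 to 0.75, also wider than its distance from Juan. All of these distances rest on 4 libraries and describe likeness only.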

How the data were processed

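Egg ChIP and input DNA of OSCs were available as 1 deposited table of 35502 rows. Bowtie2 2.2.4 and the build dm6 are named in the submitters' processing notes; the counting tool, the transposon sequences and the pooling of replicates are not given in the sources used here. The deposited values behave as RPKM: in 3536 of 9347 genes with 1 transcript, whole reads over the gene span gave the same depth (the next most frequent value had 232), and all 34762 rows above 0 came out whole within 0.002 reads in every library. Reads, depths and intervals rest on that recovery, which was tested on simulated data. Rows of a gene were summed, and transposon rows were kept apart. The pseudocount of 0.6 RPKM is the median siEGFP input of genes with 1 row divided by 10. A feature was tested if 2 or more libraries held 10 or more of its reads and 2 or more had a level over the pseudocount, which left 12556 genes and 122 transposon rows. Ratios carry exact Clopper-Pearson intervals from reads without the pseudocount, and those of changes and of differences between elements were normal approximations with 0.5 added to each count. Quantile scaling used all features tested. Alternatives were pseudocounts 5 times larger and smaller, quantile scaling, centring on the median gene, pooled inputs, ChIP without inputs and other read filters.

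The planned model for replicate columns could not be fitted. The elements, lists and tests were chosen with earlier results of these data known. All 8 members are named, with the other listed LINEs that are called or highest or lowest. G4, G5, the other G elements, BS3, Doc2-element, Doc4-element, Fw2, Fw3 and R1A1-element were picked after their values were seen, as were the rows of other species. So were transib1, transib4, 17.6 and gypsy, as rows with values close to those of HeT-A. Python 3.11.15, numpy 2.4.6, scipy 1.17.1, pandas 2.3.3 and matplotlib 3.10.9 were used.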

Additional observations from a re-analysis of the deposited data

How the results depend on the processing

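No paired analysis was possible because the table has a single column per group and the columns carry no replicate number; leaving out replicates was not run for the same reason. The median enrichment of the 8 elements in siEGFP was 0.16, but -0.20 with quantile scaling and 0.45 after centring; in siEgg it was -0.03, but -0.22 with quantile scaling. For the change, the median over the 8 was -0.09, with 0.073 under quantile scaling and -0.35 after centring. The count of elements enriched 2-fold in siEGFP was 1, but 0 with quantile scaling (HeT-A at 0.88) and 2 after centring. The count called lower in siEgg was 1, but 0 with the larger pseudocount or quantile scaling and 2 after centring. Intervals above 0 in siEGFP were 4, but 2 with quantile scaling, and those below 0 were 2, but 4 with quantile scaling. Intervals of the change above 0 were 2, but 4 with quantile scaling and 0 after centring. Of 128 single values of elements under the alternatives, 123 kept their call, and 15 changed sign or became 0. Quantile scaling replaces values by the mean over libraries at each rank, and F-element ranked 2 among all features in the siEgg ChIP and in both inputs but 4 in the siEGFP ChIP, where neighbouring ranks lie far apart in level. The other causes were not tested. Where both inputs had to hold 20 reads, the share of all features enriched in siEGFP was 2.68%, and that of features enriched in siEgg 0.154%. Depth limits G6 most, with 213 siEgg ChIP reads.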

Other observations

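Because HeT-A lies at chromosome ends, the 5 outermost genes with enough reads at each of 6 tips (X, 2L, 2R, 3L, 3R and 4) were looked at after the values were seen. Of these 30 genes, 5 were enriched 2-fold in siEGFP (16.7%), against 5.65% of all genes tested, and 1 was enriched in siEgg. Without the largely heterochromatic chromosome 4, 3 of 25 were enriched in siEGFP (12%): lncRNA:CR45473 near the X tip, with 12 siEgg and 32 siEGFP ChIP reads, Ir21a near the 2L tip, with 18 siEgg and 41 siEGFP ChIP reads, and mod near the 3R tip, with 32 siEgg and 57 siEGFP ChIP reads. Their siEGFP inputs held 9, 17 and 25 reads in that order, and only mod had at least 20 reads in both inputs. Under that filter 2.68% of all features were enriched in siEGFP. The 12% and 16.7% come without that filter, so they are to be read beside the 5.65% of all genes. CG13405 near the 3L tip was called below input in siEGFP, at -1.69 on 7 ChIP and 25 input reads. For the change, mod was called lower in siEgg and Pos near the 3R tip was called higher. On chromosome 4, Cadps and Mitf were called lower and CG33521 higher. Ir21a encodes an ionotropic receptor that senses cooling, and mod encodes the nucleolar protein Modulo. The median of the 25 genes was 0.04 in siEgg and 0.02 in siEGFP, against -0.04 in siEgg and -0.30 in siEGFP for all genes. Their median change was 0.01, against 0.22 for all genes, and l(2)gl, the tumour suppressor gene next to the 2L telomere, had 0.04 in siEgg and -0.08 in siEGFP. The distance from these genes to the telomeric arrays was not measured.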
